A study of Homo sapiens with 6 samples.

Results

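The transcripts of 10 genes for immune checkpoint ligands and natural killer (NK) cell ligands were compared between 2 human melanoma lines. The 10 genes, named by symbol, were CD274, PDCD1LG2, CD276, CD47, PVR, MICA, MICB, ULBP1, ULBP2 and ULBP3. All 10 were found among the 17766 genes of the authors' gene-named table. The WM115 line was derived from a melanoma at its primary site in the skin, and the WM266-4 line from a skin metastasis. Culture was in DMEM medium holding 10% serum, without any added treatment in the labels, and each has 3 arrays, 1 for each biological repeat. Each group is a single line, so tumour stage cannot be told apart from the line, and the cultures held no immune cells by design.

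These genes encode surface proteins through which a tumour cell meets T cells, NK cells and macrophages. CD274 (PD-L1) and PDCD1LG2 (PD-L2) bind the inhibitory receptor PD-1 on T cells, and CD276 (B7-H3) is a B7-family relative. CD47 binds SIRPA on macrophages and restrains phagocytosis. PVR (CD155) binds the activating receptor CD226 and the inhibitory receptor TIGIT, and also CD96. MICA, MICB and the ULBP proteins are stress-induced relatives of MHC class I that bind the activating receptor NKG2D, and melanoma cells are known to shed them from the surface.

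The deposited values are log2 signals from robust multi-array averaging. The first repeat of each line was on Human Gene 1.0 ST arrays and the later repeats on Human Gene 2.1 ST arrays, with another RNA kit. Each gene's mean over the first-repeat arrays nearly equalled its mean over the later arrays, with a median absolute gap of 0.0041 log2 over the tested genes and a gap of -0.018 for PDCD1LG2, the widest among the 10. Levels are therefore values equalised between array versions, and every statement on whether the lines overlap is about these equalised values. A shift common to both lines cancels in the difference within a repeat. Array medians lay between 6.12 and 6.18, but robust multi-array averaging evens the arrays, so close medians are no check of array quality. The number of arrays limits the precision. Genes with a mean level under 3.97, the 30th percentile, were not tested. Differences are WM266-4 minus WM115 in log2 signal, errors of levels are SDs over 3 arrays, errors of differences are standard errors (SE), and "rose" and "fell" mean called higher or lower in WM266-4 at a Benjamini-Hochberg adjusted p under 0.05 in limma's fit of all 12436 tested genes. A lower signal cannot tell fewer expressing cells from less RNA per cell, and these are transcript levels, not surface protein.

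The markers of the labelled cell type differed between the lines. SOX10, a transcription factor of the melanocyte lineage, stood at 7.90 in WM115 and 8.09 in WM266-4, and S100B at 9.58 and 9.72, and neither was called. Of 8 melanocytic markers 6 rose, against 13.6% of all tested genes, led by TYR (6.91, SE 0.20, adjusted p = 3.2e-05) and DCT (6.43, SE 0.74, adjusted p = 0.0028). TYR at 3.17 and DCT at 2.79 in WM115 lay under the filter level. The defining leukocyte markers were low in both lines: PTPRC (CD45), present on all white blood cells, had 2.30 ± 0.04 and 2.32 ± 0.04 (SD, n = 3), and of 16 leukocyte markers 12 lay under the filter level. CD68, a lysosomal protein of macrophages that other cells also make, fell from 9.81 to 8.05, and the integrin ITGAX rose from 4.25 to 5.40. Both calls were lost without WM115 replicate 2 (adjusted p = 0.0902 and 0.132), WM115 replicate 3 (0.0869 and 0.0664) or WM266-4 replicate 2 (0.0935 and 0.139). That of CD68 was also lost without WM266-4 replicate 3 (0.0876) and that of ITGAX without WM115 replicate 1 or WM266-4 replicate 1 (0.0675). The summed leukocyte-marker signal ran from 9.52 to 10.41 log2 over the WM115 arrays and from 8.65 to 9.35 over the WM266-4 arrays. The brightest marker, CD68, weighed most in this sum, with 9.14 to 10.21 in WM115 and 7.635 to 8.77 in WM266-4. The sum is therefore no measure of leukocyte markers at large.

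Among the 10 ligand genes, most differences were lower levels in the metastasis line. Of 8 tested members 5 fell (ULBP3, PDCD1LG2, PVR, MICB and MICA), against 13.3% of all tested genes, 1 rose (CD276), against 13.6%, and CD47 and ULBP2 were not called. CD274 and ULBP1 lay under the filter level and were not tested. The 3 arrays of one line did not overlap with those of the other for 7 of the 8 tested members, against 51.7% of all tested genes, nor for the untested ULBP1. The median difference over the 10 was -0.72, while over all tested genes it was 0.01. All 3 pairs of equal replicate number were lower in WM266-4 for 7 members and higher for CD276, and had mixed signs for CD274 and CD47. Lines that do not overlap must give pairs of 1 sign, so the pair counts repeat the overlap and add no support to it. The share of all tested genes with pairs of 1 sign was not counted.

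**Figure D1:**
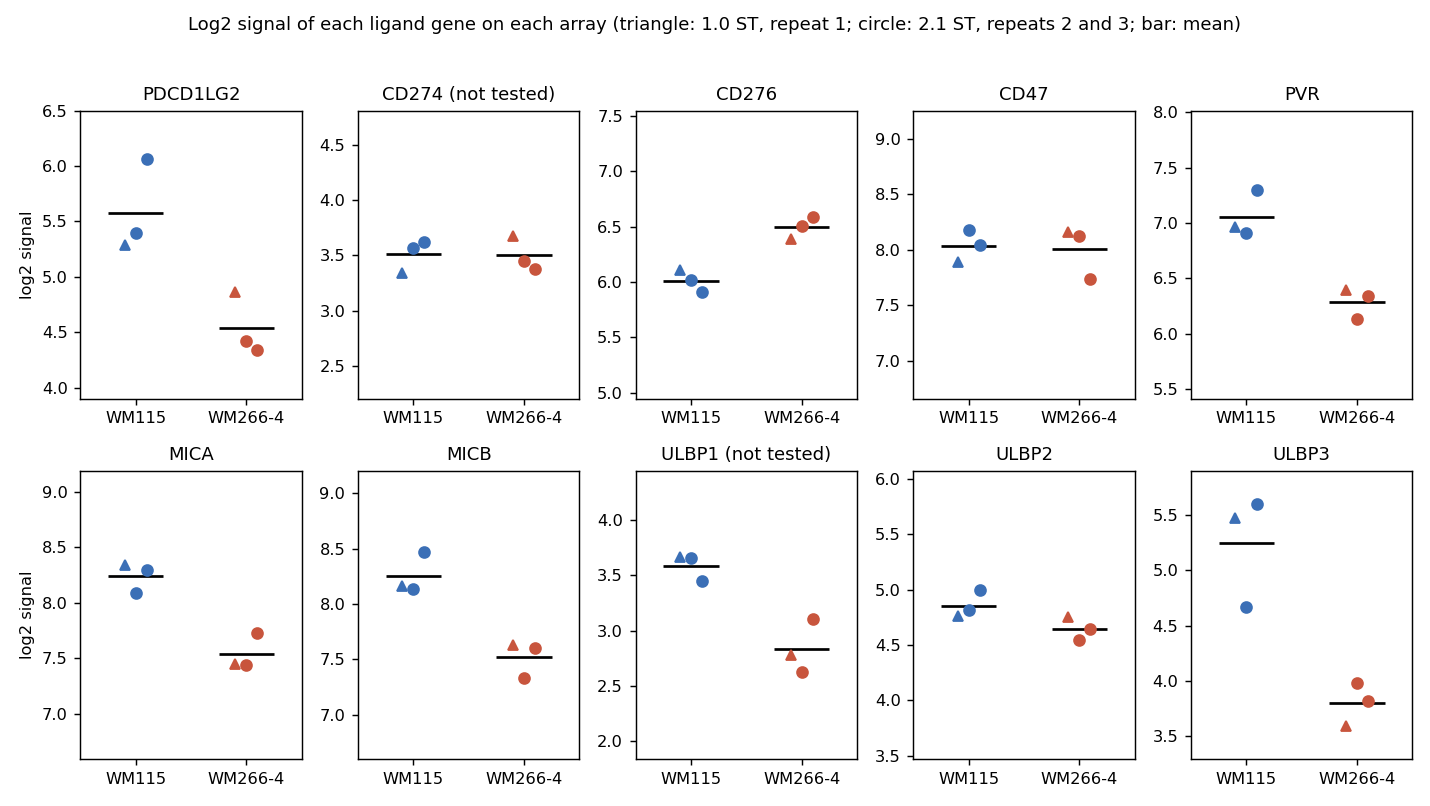
Log2 signal of each of the 10 ligand genes on every array, in a panel per gene with the same height of axis, WM115 in blue and WM266-4 in red, triangles for the 1.0 ST arrays, circles for the 2.1 ST arrays and bars for the mean of 3. The points of the lines overlap in the panels of CD274 and CD47 and do not overlap in the other 8, though those of ULBP2 nearly touch.

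PDCD1LG2 and CD274 lie side by side on chromosome 9 in RefSeq, and the former fell while the latter was too dim to be tested. PDCD1LG2 read 5.28, 5.40 and 6.06 on the WM115 arrays and 4.86, 4.42 and 4.34 on the WM266-4 arrays. Every WM115 array was above every WM266-4 array, with WM115 replicate 3 the highest. The mean fell from 5.58 ± 0.42 to 4.54 ± 0.28 (SD, n = 3), a difference of -1.04 (95% interval -1.64 to -0.44, SE 0.25, adjusted p = 0.0263 by limma), so that the WM115 signal was 2.06 times that of WM266-4. The pairs gave -0.42, -0.98 and -1.72. The PDCD1LG2 call was lost without WM115 replicate 2 (adjusted p = 0.0665), WM266-4 replicate 2 (0.105) or WM266-4 replicate 3 (0.0981).

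CD274 read 3.34, 3.57 and 3.62 in WM115 and 3.67, 3.45 and 3.38 in WM266-4. These are low signals, at the 21.5th percentile of gene means, and the lines overlapped. In the fit without a filter, where 19.4% of 17766 genes were called, the difference was -0.01 (SE 0.13, 95% interval -0.32 to 0.30, adjusted p = 0.982), and the pairs gave 0.33, -0.12 and -0.24. No detection calls were used, so this level is not read as absence. Whether the CD274 and PDCD1LG2 differences differ from each other was not tested.

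The stretch before the CD274 start site is shown because genes of its interferon-gamma route are described further on. It spans chr9:5450292-5450541 of GRCh38.p14 on the plus strand and is the 250 bases before the RefSeq start, with the interferon response element core (GAAA, any NN, then GAAA again, on either strand) in capitals.
CD274: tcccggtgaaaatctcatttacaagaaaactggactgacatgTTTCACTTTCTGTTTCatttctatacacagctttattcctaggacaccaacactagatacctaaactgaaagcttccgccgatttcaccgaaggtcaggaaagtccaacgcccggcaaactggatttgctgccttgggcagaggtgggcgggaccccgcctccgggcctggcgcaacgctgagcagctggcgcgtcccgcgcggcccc
The capitals hold 2 overlapping matches on the minus strand, beginning at positions -208 and -202 relative to the start. Of 35116 RefSeq promoter entries cut to the same 250 bases, 3.02% hold this motif on either strand, and CD274 was the one gene with it among the 9 members that have an entry. The match describes the letters of the reference and measures no factor.

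CD276, which has no agreed receptor, was the one member that rose. Its levels were 6.11, 6.01 and 5.91 on the WM115 arrays and 6.38, 6.51 and 6.59 on the WM266-4 arrays. The lines did not overlap, and the spread within each was narrow. The mean went from 6.01 ± 0.10 to 6.49 ± 0.10 (SD, n = 3), up by 0.48 (SE 0.11) with a 95% interval from 0.21 to 0.76 and an adjusted p of 0.0246 by limma, or 1.40 times. The pairs gave 0.28, 0.50 and 0.68. CD276 missed the threshold without WM115 replicate 2 (adjusted p = 0.0791), WM115 replicate 3 (0.0837), WM266-4 replicate 2 (0.101) or WM266-4 replicate 3 (0.0964), while without WM115 replicate 1 or WM266-4 replicate 1 it was 0.0092.

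CD47 had a bright signal in both lines. It read 7.89, 8.18 and 8.04 in WM115 and 8.16, 8.13 and 7.74 in WM266-4, and the lines overlapped. The difference was -0.03 (SE 0.16, 95% interval -0.40 to 0.35, adjusted p = 0.921), which turned to 0.05 without WM115 replicate 2 and to 0.13 without WM266-4 replicate 3. The interval leaves out changes as large as those of PVR or MICB.

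Of 6 tested genes listed as CD47 partners or modifiers of its pyroglutamate, 2 rose, 1 fell and 3 were not called, beside 13.6% and 13.3% of all tested genes called higher and lower. SIRPA, the receptor that CD47 engages, read 5.50, 5.66 and 6.05 in WM115 and 7.43, 7.32 and 6.93 in WM266-4, a rise of 1.49 (SE 0.20, adjusted p = 0.0043). It is known from macrophages, and here its signal came from melanoma cultures. QPCT, a glutaminyl cyclase whose relative QPCTL forms the pyroglutamate of CD47 that SIRPA binds, read 2.15, 4.12 and 4.14 in WM115 and 9.0, 7.61 and 6.65 in WM266-4. Its mean of 3.47 in WM115 lay under the filter level, so its rise of 4.28 (SE 0.76, adjusted p = 0.0102) is set against a dim signal. QPCTL itself was at 6.90 and 7.26 (difference 0.37, SE 0.16, adjusted p = 0.143). LRP1, the receptor for the phagocytic signal calreticulin, fell from 8.54 to 7.79 (adjusted p = 0.0069), and CALR (calreticulin) was at 11.27 and 11.28 (adjusted p = 0.952).

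PVR was lower in WM266-4 on every array. It read 6.96, 6.91 and 7.30 in WM115 and 6.40, 6.13 and 6.34 in WM266-4, with no overlap. The mean fell from 7.06 ± 0.21 to 6.29 ± 0.14 (SD, n = 3), a difference of -0.77 (95% interval -1.12 to -0.41, SE 0.15, adjusted p = 0.0136 by limma), so the WM115 signal was 1.70 times that of WM266-4. The pairs gave -0.56, -0.78 and -0.96. The PVR call was lost without WM266-4 replicate 2 (adjusted p = 0.0662).

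Of 5 tested nectins and nectin-like ligands 1 fell, 0 rose and 4 were not called, a share close to the 26.9% of all tested genes called in either direction. NECTIN2 (CD112), which shares TIGIT and CD226 with PVR and is listed as PVRL2 in the table, fell from 6.39 ± 0.02 to 5.91 ± 0.03 (SD, n = 3), a difference of -0.48 (SE 0.09, adjusted p = 0.0139). Its call was lost without WM115 replicate 2 (0.0537), WM266-4 replicate 2 (0.0682) or WM266-4 replicate 3 (0.0629). NECTIN3, which also binds PVR, did not overlap between the lines, its pairs gave -1.62, -0.28 and -0.48, and it was not called (-0.80, SE 0.26, adjusted p = 0.0656).

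CD96, a receptor for PVR known from T and NK cells, had the widest difference among the receptor genes. It read 8.40, 8.10 and 8.57 on the WM115 arrays and 3.63, 3.63 and 3.45 on the WM266-4 arrays. The 3 WM115 arrays were bright and the 3 WM266-4 arrays lay under the filter level. The difference was -4.79 (SE 0.15, adjusted p = 3.3e-05), and it stayed between -4.92 and -4.65 on leaving out any 1 array. The other 13 receptors found in the table were at 4.44 or below in WM115 and 4.49 or below in WM266-4, among them TIGIT at 3.08 in both lines and CD226 at 3.21 and 2.53. Defining markers of T and NK cells were low in WM115, where CD3D stood at 3.31, CD3E at 2.84, CD2 at 3.08 and GNLY at 3.50. KLRK1, the gene for NKG2D, was not analysed here.

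**Figure D2:**
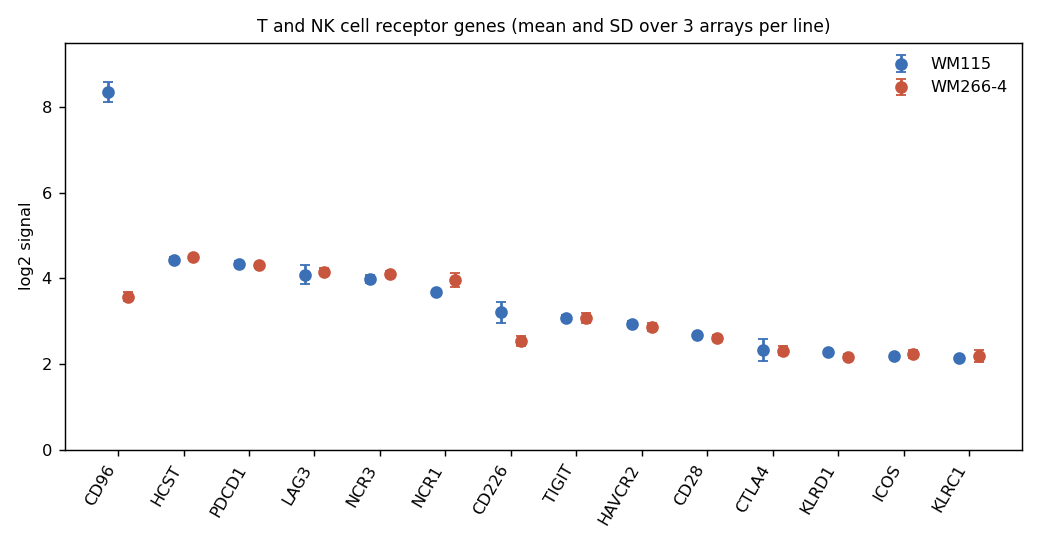
Log2 signal of 14 T and NK cell receptor genes in WM115 (blue) and WM266-4 (red), as the mean with the SD over 3 arrays, ordered by the WM115 level. CD96 at 8.36 in WM115 stands above the other points, which lie at 4.49 or below.

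MICA and MICB, neighbours on chromosome 6 next to HLA-B, both fell. MICA read 8.35, 8.09 and 8.29 in WM115 and 7.45, 7.44 and 7.73 in WM266-4. The mean fell from 8.24 ± 0.14 to 7.54 ± 0.17 (SD, n = 3), a difference of -0.70 (95% interval -1.03 to -0.38, SE 0.13, adjusted p = 0.0133), or 1.63 times higher in WM115. MICB read 8.17, 8.14 and 8.47 in WM115 and 7.63, 7.34 and 7.61 in WM266-4. Its mean fell from 8.26 ± 0.18 to 7.53 ± 0.16 (SD, n = 3), a difference of -0.73 (95% interval -1.08 to -0.38, SE 0.15, adjusted p = 0.0153), or 1.66 times higher in WM115. Neither gene overlapped between the lines. The MICA call was lost without WM115 replicate 3 (0.0553) or WM266-4 replicate 2 (0.0684), and the MICB call without WM266-4 replicate 2 (0.0675).

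The table holds several rows for each of these genes, and the brightest was used. MICA had 5 rows, 4 of them distinct, with differences from -0.70 to -0.60, and 4 of the 5 were called. The row that missed the call overlapped between the lines and had a mean level of 6.15 and an adjusted p of 0.102. MICB had 8 rows, 7 of them distinct, with differences from -0.73 to -0.56, and 7 were called. The dimmest, at 6.12, missed it (adjusted p = 0.0732). Rows of one gene share probes and arrays, so they are not separate evidence, and probes for MICA and MICB, which are close in sequence, may bind both transcripts.

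**Figure D3:**
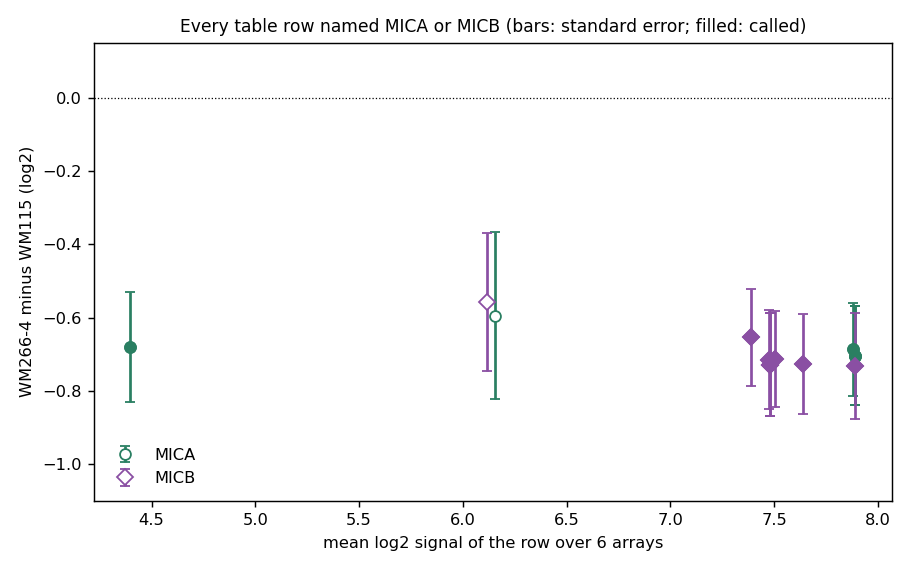
Difference between the lines, in log2 signal with its standard error, of every table row named MICA (circles) or MICB (diamonds) against the row's mean log2 signal over 6 arrays, filled where called. All 13 rows lie below 0, and the open symbols are the MICA row at 6.15 and the MICB row at 6.12.

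The promoters of MICA and MICB are shown because both genes fell and both are known heat shock responders. They are the 250 bases before the RefSeq starts in GRCh38.p14, chr6:31403345-31403594 and chr6:31497895-31498144 on the plus strand, with the match to GAANNTTC, the paired half-sites of a heat shock element, in capitals.
MICA: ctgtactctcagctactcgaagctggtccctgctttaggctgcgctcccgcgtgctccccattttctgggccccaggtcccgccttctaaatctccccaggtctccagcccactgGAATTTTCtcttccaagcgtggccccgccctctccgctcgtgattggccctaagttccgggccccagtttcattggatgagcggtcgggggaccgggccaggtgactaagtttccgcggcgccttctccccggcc
MICB: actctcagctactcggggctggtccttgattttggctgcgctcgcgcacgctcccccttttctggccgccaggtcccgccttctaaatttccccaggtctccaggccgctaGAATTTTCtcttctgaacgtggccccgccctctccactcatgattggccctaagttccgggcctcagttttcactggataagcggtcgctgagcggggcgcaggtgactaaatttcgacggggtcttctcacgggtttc
The match has the same 8 letters in both and begins at position -135 relative to the start in MICA and -139 in MICB. The motif reads the same on both strands. It stands in 5.78% of the 35116 promoter entries and in no other member's. Over 246 aligned bases the MICA and MICB stretches were 85.0% identical, so the matches in them are not independent. The match describes the letters of the reference and measures no factor, and its bearing on the falls was not tested.

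Of 20 tested genes of NKG2D-ligand shedding and stress regulation, 7 rose, 4 fell and 9 were not called. Of all tested genes 13.6% were called higher and 13.3% lower. The heat shock proteins HSPA1A (from 8.78 to 7.82, -0.96, SE 0.12, adjusted p = 0.0034) and HSPA1B (-0.92, SE 0.11, adjusted p = 0.0031), which are almost identical and may share probes, fell. HSF1, the factor that drives them, was at 6.78 and 6.75 (adjusted p = 0.849). These are transcript levels and not activity of the factor, and a link of these heat shock genes to MICA or MICB was not tested. The chromatin repressor EZH2 rose by 0.83 (SE 0.10, adjusted p = 0.0036) and the endoplasmic reticulum protein ERP29 by 0.67 (SE 0.12, adjusted p = 0.0096). Others that rose were ATM (0.55, SE 0.15, adjusted p = 0.041), CHEK2 (0.58, SE 0.13, adjusted p = 0.0243) and E2F1 (0.46, SE 0.11, adjusted p = 0.0251). ATF4 (0.34, SE 0.09, adjusted p = 0.0418) and XBP1 (0.52, SE 0.14, adjusted p = 0.0364) rose too, and HDAC3 fell (-0.34, SE 0.10, adjusted p = 0.0460). ATM, CHEK2, E2F1, ATF4, XBP1 and HDAC3 were not refitted on leaving out 1 array. Of the ADAM sheddases, ADAM9 fell from 9.02 to 8.38 (-0.64, SE 0.16, adjusted p = 0.0295). ADAM9 missed the threshold without replicate 2 (0.105) or 3 (0.103) of WM115 and without replicate 2 (0.121) or 3 (0.107) of WM266-4. ADAM10 (9.29 and 9.72, adjusted p = 0.0989) and ADAM17 (7.35 and 7.49, adjusted p = 0.403) were not called.

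The ULBP genes lie in a cluster on chromosome 6, and of its tested members ULBP3 fell and ULBP2 was not called. ULBP3 read 5.47, 4.67 and 5.60 on the WM115 arrays and 3.59, 3.98 and 3.82 on the WM266-4 arrays. The lines did not overlap, and WM115 replicate 2 lay nearest to the WM266-4 arrays. The mean fell from 5.25 ± 0.50 to 3.80 ± 0.19 (SD, n = 3), a difference of -1.45 (95% interval -2.09 to -0.81, SE 0.26, adjusted p = 0.0113 by limma), so the measured WM115 signal was 2.73 times that of WM266-4. The WM266-4 mean lay under the filter level, so this fold is set against a dim signal. The pairs gave -1.88, -0.69 and -1.78, and the ULBP3 call was kept on leaving out any 1 array (adjusted p up to 0.0463).

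ULBP1 read 3.66, 3.66 and 3.44 in WM115 and 2.77, 2.62 and 3.10 in WM266-4. Both lines lay under the filter level, and they did not overlap. In the fit without a filter the difference was -0.75 (SE 0.15, 95% interval -1.12 to -0.39, adjusted p = 0.0200), and it was not called without WM115 replicate 2 (0.0805) or WM266-4 replicate 2 (0.0815). ULBP2 read 4.76, 4.81 and 5.0 in WM115 and 4.75, 4.55 and 4.65 in WM266-4. The lines just missed overlapping, with the first-repeat arrays 0.0093 apart, and the difference of -0.21 was not called (SE 0.12, 95% interval -0.49 to 0.08, adjusted p = 0.238). It was -0.128 without WM115 replicate 3 and -0.308 without WM115 replicate 1 or WM266-4 replicate 1. Of the other NKG2D ligands, RAET1G was tested and not called (4.34 and 4.22, adjusted p = 0.717), while RAET1E (3.22 and 2.68) and RAET1L (2.91 and 3.01) lay under the filter level. ULBP2, RAET1G and RAET1L are close in sequence, so their signals may mix. Whether the ULBP differences differ from each other was not tested.

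The starts of ULBP3 and ULBP2 are set side by side because ULBP3 fell and ULBP2, a tested member of the same cluster, was not called. Both stretches are 250 bases before the RefSeq start in GRCh38.p14, chr6:150069122-150069371 on the minus strand and chr6:149941764-149942013 on the plus strand, with GC boxes (GGGCGG on either strand) in capitals.
ULBP3: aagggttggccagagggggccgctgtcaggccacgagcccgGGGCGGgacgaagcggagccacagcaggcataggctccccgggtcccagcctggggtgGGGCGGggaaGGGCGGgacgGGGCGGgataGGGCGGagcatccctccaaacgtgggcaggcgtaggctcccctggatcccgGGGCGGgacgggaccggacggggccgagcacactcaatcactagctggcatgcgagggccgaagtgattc
ULBP2: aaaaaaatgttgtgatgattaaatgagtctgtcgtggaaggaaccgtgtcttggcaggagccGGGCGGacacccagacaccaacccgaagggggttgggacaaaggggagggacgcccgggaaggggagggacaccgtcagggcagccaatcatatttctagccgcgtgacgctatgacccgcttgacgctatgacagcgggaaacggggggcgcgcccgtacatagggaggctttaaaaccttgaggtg
ULBP3 holds 6 GC boxes and ULBP2 holds 1. At least 1 stands in 42.6% of all entries. CD47, which was not called, also holds 6, and PVR, which fell, holds 0. No factor was measured, and whether GC boxes bear on any of these differences was not tested. None of the 9 members with an entry holds the AP-1 motif TGANTCA (6.57% of all entries) or the E-box CACGTG (6.34%) in this window, and the GAS core TTCNNNGAA (6.57%) stands in that of CD274.

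**Figure D4:**
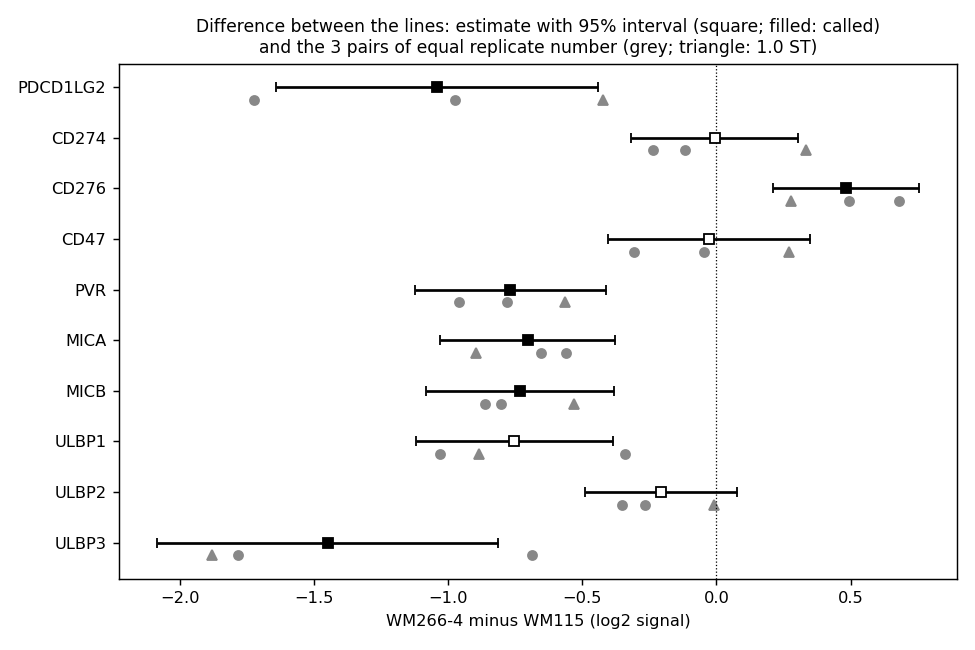
Difference between the lines, WM266-4 minus WM115 in log2 signal, for each of the 10 ligand genes: squares are the fitted estimates with 95% intervals, filled where called among tested genes, and grey points below them are the 3 pairs of equal replicate number. The intervals of CD274, CD47 and ULBP2 cross 0, and ULBP3 at -1.45 and PDCD1LG2 at -1.04 lie farthest to the left.

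Listed regulators of PD-L1, activators and inhibitors together, were lower more often than higher, which gives no net direction for PD-L1. Of 23 genes of the interferon-gamma route and other PD-L1 regulators, all tested, 8 fell, 1 rose and 14 were not called, beside 13.3% and 13.6% of all tested genes, with a median of -0.31. JUN, an AP-1 subunit, fell from 7.43 ± 0.07 to 5.0 ± 0.22 (SD, n = 3), a difference of -2.43 (SE 0.14, adjusted p = 3.0e-04). IRF1, the interferon-induced factor that switches on CD274, read 5.27, 5.47 and 5.38 in WM115 and 4.50, 4.36 and 4.26 in WM266-4 and fell by 1.00 (SE 0.12, adjusted p = 0.0029). Negative regulators also fell: SOCS3 by 0.49 (SE 0.14, adjusted p = 0.0443), PTPN2 by 0.64 (SE 0.10, adjusted p = 0.0067) and CUL3 by 0.41 (SE 0.10, adjusted p = 0.0287). SOCS3, PTPN2 and CUL3 were not refitted on leaving out 1 array. MYC rose by 1.34 (SE 0.10, adjusted p = 7.6e-04). The kinases JAK1 (8.59 and 8.82, adjusted p = 0.138) and JAK2 (5.72 and 5.52, adjusted p = 0.339) and CMTM6, which stabilises PD-L1 protein (7.27 and 7.21, adjusted p = 0.847), were not called.

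Of 22 other co-signalling ligands 10 were tested, of which 3 rose, 2 fell and 5 were not called, beside 13.6% and 13.3% of all tested genes called higher and lower. The lectin LGALS3, a ligand of LAG3, rose from 5.39 ± 0.10 to 7.22 ± 0.34 (SD, n = 3; difference 1.83, SE 0.19, adjusted p = 0.0021). CEACAM1, which inhibits NK and T cells by binding itself, rose by 1.42 (SE 0.23, adjusted p = 0.0074). NT5E (CD73), which makes adenosine, fell by 1.20 (SE 0.12, adjusted p = 0.0017), and the ICOS ligand ICOSLG fell by 0.80 (SE 0.16, adjusted p = 0.0154). The ICOSLG call was lost without WM115 replicate 3 (0.0629) or WM266-4 replicate 2 (0.0610). The B7 ligands CD80 (2.68 and 2.63) and CD86 (3.04 and 2.93) lay under the filter level in both lines.

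Of 13 tested NK cell and adhesion ligands, 6 fell, 2 rose and 5 were not called, with a median of -0.63, beside 13.3% lower, 13.6% higher and a median of 0.01 over all tested genes. NCR3LG1 (B7-H6), the ligand of the activating receptor NKp30, fell from 5.86 ± 0.06 to 4.90 ± 0.05 (SD, n = 3; difference -0.97, SE 0.10, adjusted p = 0.0021). CLEC2B, the ligand of the activating receptor NKp80, fell by 0.85 (SE 0.14, adjusted p = 0.0076). The death receptor FAS (0.63, SE 0.15, adjusted p = 0.0292) and the adhesion molecule ICAM1 (0.62, SE 0.12, adjusted p = 0.0131), a ligand of LFA-1, rose. Genes of the same kinds also fell: the death receptor TNFRSF10B by 0.83 (SE 0.10, adjusted p = 0.0031) and the adhesion ligand CD58 by 0.70 (SE 0.13, adjusted p = 0.0130). TNFRSF10B and CD58 were not refitted on leaving out 1 array. The FAS call was lost without WM115 replicate 2 (0.0895), WM266-4 replicate 2 (0.0530) or WM266-4 replicate 3 (0.0946), and the ICAM1 call without WM115 replicate 3 (0.0506) or WM266-4 replicate 2 (0.0611). Of the non-classical HLA genes, HLA-F fell by 0.65 (SE 0.11, adjusted p = 0.0084) and HLA-G by 0.81 (SE 0.18, adjusted p = 0.0233). HLA-G missed the threshold without WM115 replicate 2 (0.0752), WM266-4 replicate 2 (0.0708) or WM266-4 replicate 3 (0.0541), and the later repeats alone (without replicate 1 of either line) gave -0.53. HLA-E, whose product is read by the NK receptor NKG2A, was at 9.21 and 8.58 and was not called (adjusted p = 0.0573).

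**Figure D5:**
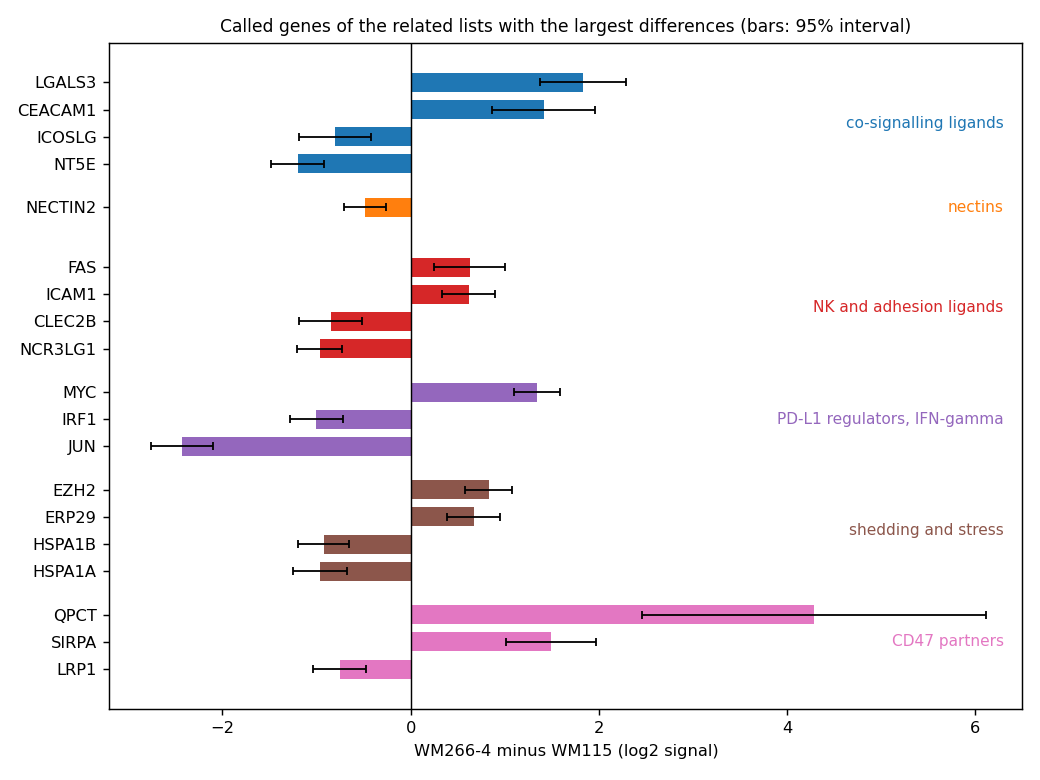
Difference between the lines in log2 signal, with 95% intervals, of the called genes with the widest differences in each list of related genes, at most 2 per direction, coloured by list. QPCT at 4.28 has the widest interval, JUN at -2.43 is the lowest bar, and NECTIN2 at -0.48 is the shortest.

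The patterns over the 6 arrays were set against all tested genes by the root mean square difference of log2 values centred on each gene's mean. Genes picked in this way must have line differences near that of the member, so their rises and falls follow from the choice and add no support. Nearest to CD276 were LMF2 (0.018), SRRD (0.027) and AKNA (0.032), where the median gene stood 0.30 away, and they rose by 0.46, 0.49 and 0.44. Each of these calls was lost when any single 2.1 ST array (replicate 2 or 3 of either line) was removed (adjusted p from 0.0828 to 0.133). Nearest to ULBP3 were the gene listed as AIM1 (0.12), RFTN2 (0.14) and PTPN13 (0.16), where the median gene stood 0.81 away, and they fell by 1.35, 1.41 and 1.31. The AIM1 and RFTN2 calls were lost without WM115 replicate 3 (0.0576 and 0.0564), and those of AIM1, RFTN2 and PTPN13 without WM266-4 replicate 2 (0.0732, 0.0563 and 0.0504).

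The genes flanking the members did not share their direction throughout. Of all tested genes 13.6% were called higher and 13.3% lower, and the counts below were not tested against these shares. Among the 10 tested genes nearest to PDCD1LG2 and CD274, 5 on each side in RefSeq order, 2 rose, 0 fell and the median difference was 0.22. Among those nearest to MICA and MICB 1 fell (HLA-C), 0 rose and the median was -0.11. Around the ULBP genes none of 10 was called, and the median was 0.19. Around PVR 3 fell, 0 rose and the median was -0.23. Around CD276 2 rose and 1 fell with a median of 0.01, and around CD47 3 rose and 5 fell, CD96 among the latter, with a median of -0.27. This window was chosen after values were seen.

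The differences between the lines were also taken by repeat. PDCD1LG2 differed by -0.42 in the first repeat and by -1.35 in the later ones, ULBP3 by -1.88 and -1.23, MICA by -0.90 and -0.61, MICB by -0.53 and -0.83, PVR by -0.56 and -0.87 and CD276 by 0.28 and 0.59. In limma's test of the change between repeats, 0 of the 8 tested members passed at an adjusted p under 0.05 and 1, PDCD1LG2, had an unadjusted p under 0.05 (0.034, adjusted p = 0.227), beside 5.48% of all tested genes that passed. Without WM115 replicate 2 PDCD1LG2 passed (adjusted p = 0.0028), and without WM115 replicate 3 ULBP3 passed (adjusted p = 0.0088). The first repeat holds 1 array per line, so the error of this test comes from the later repeats, and array version, RNA kit and repeat cannot be told apart.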

How the data were processed

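RNA of 3 biological repeats each of WM115 and WM266-4 was measured on Affymetrix arrays. Affymetrix Expression Console and RMA are named in the submitters' processing notes. No source used here says how the array versions were merged. The authors deposited a gene-named table of log2 signals with 18887 rows. The value tables per array version were not used here, since no table naming their probe sets was at hand. The brightest of the rows sharing a symbol was kept (1121 further rows dropped), giving 17766 genes, 17750 of which matched a RefSeq symbol or synonym (GRCh38.p14).

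The fit to these log2 values used limma's lmFit and eBayes (version 3.58.1, R 4.3.3), with line and array version as terms (3 residual and 3.38 prior degrees of freedom). Genes at or above the 30th percentile of the mean (12436) were tested, with Benjamini-Hochberg adjustment over them; 3343 were called. All adjusted p values are limma's and two-sided. The fit was also run on simulated data with independent noise. Those data held no array version effect and no equalising between versions, so they are no check of the errors in the deposited values. The SDs of differences between replicates of a line over genes ran from 0.22 to 0.34 log2, and 0 pairs of arrays were identical.

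The members and the 13 other lists (7 of related genes, 6 of markers) were chosen with earlier results of these data known. Named were all members, up to 2 called genes per direction and related list, up to 2 called genes per marker list and the 3 genes nearest in pattern to CD276 and ULBP3; other genes were named after their values were seen. Of 9 fibroblast markers 7 were tested, of which 1 rose (COL1A2, 4.48), 2 fell (COL3A1 most, -2.01) and 4 were not called. Of all tested genes 13.6% were called higher and 13.3% lower. Of 6 keratinocyte markers 1 was tested, DSP, which fell (-1.48), and of 4 endothelial markers 1, KDR, which fell (-1.91). The untested markers of these lists lay under the filter level, and some of them did not overlap between the lines, such as PDGFRA (-1.22), TP63 (-1.09) and TEK (0.35). The part of these markers in the results was not tested. The DSP call was lost without WM115 replicate 2 (adjusted p = 0.0951), WM115 replicate 3 (0.0836), WM266-4 replicate 2 (0.115) or WM266-4 replicate 3 (0.106).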

Additional observations from a re-analysis of the deposited data

How the results depend on the processing

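The number of members called lower, 5, was 6 without a filter on dim genes, where ULBP1 entered, and 3 with a filter at the 50th percentile, under which ULBP3 and PDCD1LG2 were not tested. With the replicate block in place of array version, 4 members were called lower and 0 higher, the calls of PDCD1LG2 (adjusted p = 0.0523) and CD276 (0.0541) being lost. Whether the replicate numbers pair the samples could not be read from the arrays, since the equal gene means of the array versions force opposite deviations in replicate 1 (correlation -0.998) and the labels name no shared batch beyond array version and kit. The number called lower was between 1 and 5 and the number called higher between 0 and 1 on leaving out 1 array at a time. The lowest count, 1, came without WM266-4 replicate 2, where ULBP3 was the member called. The count of all called genes, 3343, ran from 1400 to 3914 in the same settings, with 1400 without WM266-4 replicate 2, 1696 without WM266-4 replicate 3, 1777 without WM115 replicate 2 and 1808 without WM115 replicate 3. The number of members whose difference changed with array version was 0 and ran from 0 to 1 on leaving out 1 later array, a choice added after seeing the data. Quantile normalization, equal array medians, a robust or trended prior, no array version term, the 2.1 arrays alone and the mean of a gene's rows kept 5 members called lower and 1 higher. The CD47 difference ran from -0.177 to 0.127 on leaving out 1 array and turned positive without WM115 replicate 2 (0.053) and without WM266-4 replicate 3 (0.127). The CD274 difference without a filter turned positive after quantile normalization (0.041). It was also positive without replicate 2 (0.028) or 3 (0.055) of WM115 and without replicate 2 (0.021) or 3 (0.062) of WM266-4, and ran from -0.176 to 0.062 over the arrays left out. Leaving out WM115 replicate 1 or WM266-4 replicate 1 leaves the difference to the 2.1 arrays. The cause of these shifts was not tested. The value tables per array version could not be fitted for the members, so that alternative was not run. Signal over background was not assessed, which limits what the dim members CD274 and ULBP1 can show.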
